A study of Homo sapiens with 33 samples.

Results

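The 89 genes described here were on at the start of a human embryonic stem cell differentiation and off by day 9. The genes were selected on their detection p-values. A gene was taken when the array gave it a single annotated symbol, when a probe for it was detected on all 3 arrays of LSB day 2, and when none of its probes was detected on any of the 12 arrays of days 9 and 15. Detected means a detection p-value, the probe's rank against the negative control probes of its array, under 0.01. Of 18852 genes with 1 symbol, 7380 met the first condition and 94 met both. PRDM14, POLR3G and symbols starting SLC, KCN, SCN, CACN, COL, ITG, SEMA or EPH were left out by name, which removed 5 genes and left 89, or 1.206% of the genes detected at LSB day 2. Of these, 87 were annotated as protein coding, 1 as a long noncoding RNA (LINC02387) and 1 as a transcribed pseudogene (TPTEP1).

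The cells were H9 (WA-09), an established human embryonic stem cell line, grown on mouse embryonic fibroblasts with FGF2 and then plated on Matrigel. In LSB they received LDN-193189, an inhibitor of BMP receptors, with SB431542, an inhibitor of activin, nodal and TGF-beta receptors. In LSB3i CHIR 99021, DAPT and SU5402 were given as well, which inhibit GSK3, the gamma-secretase that cleaves Notch, and the receptors of FGF and VEGF. LSB was sampled at 6 times (day 2, day 3, day 5, day 7, day 9 and day 15) and LSB3i at the same times from day 3 on, with 3 arrays, lettered A, B and C, in each of the 11 groups. Every group, LSB day 2 included, had received LDN-193189 and SB431542, and no array of untreated cells or of LSB3i day 2 was analysed here. All arrays came from 1 cell line, and the labels do not say whether the letters are separate cultures, and the p-values below therefore cover array-to-array spread, which may be technical.

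Human pluripotent stem cells keep their identity through a network around POU5F1, SOX2 and NANOG that depends on activin or nodal and FGF signalling. They are epithelial cells, joined by E-cadherin and tight junctions. When activin, nodal and BMP signals are blocked together the cells lose this state and take a neural ectoderm fate marked by PAX6. Alongside the core factors they also transcribe genes better known from other tissues.

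Mean intensity per array ran from 298.2 to 871.6 and the number of detected probes from 9320 to 13743 of 48803. LSB day 7 array C was lowest on both, and its lowest detected level was 7.69 on the log2 scale, against 7.06 and 7.16 on LSB day 7 arrays A and B and at most 7.02 on every other array, so a gene of low signal could be missed at LSB day 7 where it would have been detected elsewhere. All 9 pluripotency markers used to check the cell type were detected on all 3 LSB day 2 arrays, and none of 8 mesendoderm markers was detected on all 3 arrays of any group. At LSB day 2, 4 of 6 neuron, 4 of 7 fibroblast and mesenchyme and 1 of 7 trophoblast markers were also detected on all 3 arrays. Of the 9 pluripotency markers, 6 were still detected on all 3 arrays at LSB day 9 and 7 at day 15. Detection of these lists alone therefore did not set the cell types apart. PAX6 was detected on 1 of 3 LSB day 2 arrays, where its brightest probe read 4.89, 5.04 and 4.99, and stood at 11.28, 11.42 and 11.39 at LSB day 5. Of the neuroectoderm markers, 2 of 6 were detected on all 3 LSB day 2 arrays and 4 of 6 on all 3 LSB day 5 arrays.

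Some arrays stood apart. LSB3i arrays A of days 3 and 5 gave higher pluripotency marker levels than B and C of the same days. The mean level of the 8 pluripotency markers other than CRIPTO was 11.72, 10.72 and 10.68 on LSB3i day 3 arrays A, B and C. At day 5 it was 10.70, 9.66 and 9.71. PAX6 was 6.56 on LSB3i day 5 array A and 9.94 and 9.58 on B and C. Array A stood apart at LSB3i day 7 too, where PAX6 read 9.09, 10.83 and 10.95 on A, B and C. The mean level of 6 neuron markers was 7.82, 9.72 and 9.96 on these arrays and 10.25, 11.21 and 11.31 at LSB3i day 9. Tests that involve LSB3i were therefore also run without the LSB3i A arrays of days 3, 5 and 7, a choice made after the data were seen.

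Levels below are log2 intensities after background correction and quantile normalization. They compare arrays for a given gene, since probes of different genes have different responses. At LSB day 2 the 89 genes gave signals from 6.92 to 10.62 with a median of 7.83, against a median of 9.47 over all 7380 genes detected there, and only 5 of the 89 lay above that median. The lowest detected level of an array ran from 6.30 to 7.69. Mean levels over days 9 and 15 were 5.03 to 5.92 with a median of 5.4. These values chose the genes, so they are a description.

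The 12 genes of highest LSB day 2 signal were IDO1, CHST4, KLKB1, TMPRSS2, HERC6, ORM1, C19orf33, SMPDL3B, NMI, SELENOP, SYT6 and VSIG10. IDO1, which starts the breakdown of tryptophan and is induced by interferon, read 10.72, 10.90 and 10.25 on the 3 LSB day 2 arrays. CHST4, a sulfotransferase that helps make ligands for L-selectin, read 9.78, 9.93 and 10.01. KLKB1, plasma prekallikrein, read 9.84, 9.47 and 9.61.

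Promoter sequence was not used in the choice of the genes. RefSeq promoter windows (GRCh38.p14), from 250 bases before to 50 after the start, were found by symbol for 64 of the 89 genes. CpG dinucleotides, the target of DNA methylation, were less frequent in them. Observed over expected CpG had a median of 0.61, against 0.84 in the 6182 genes detected at LSB day 2, members included, that have a window and 0.56 in all 27305 genes of the table. It was under 0.6 for 30 of 64 (46.9%), against 14.8% of the genes detected at LSB day 2 and 52.3% of all genes. The difference from other early genes was there on both sides of the members' median signal. Among members below the members' median signal it was under 0.6 for 15 of 32 (46.9%), against 154 of 746 other early genes (20.6%) in the same range. At or above that median it was 15 of 32 (46.9%) against 730 of 5372 (13.6%). This upper range has no top limit, and only 5 of the 89 lay above the median signal of all early genes. Signal was therefore not matched there. These shares are descriptions with no test, and 25 of the 89 genes had no entry. A few windows show the range, and are printed because these genes recur in the comparisons below. SELENOP (chr5:42811843-42812142, minus strand) holds 1 CpG, ORM1 (chr9:114322848-114323147, plus strand) 7 and KLKB1 (chr4:186227257-186227556, plus strand) 5. HERC6 (chr4:88378602-88378901, plus strand) holds 16, AOX1 (chr2:200585764-200586063, plus strand) 22 and TMEM238 (chr19:55384243-55384542, minus strand) 28. Each runs 5′ to 3′ in the direction of the gene. Capitals mark each CpG and each TATAAA.
SELENOP: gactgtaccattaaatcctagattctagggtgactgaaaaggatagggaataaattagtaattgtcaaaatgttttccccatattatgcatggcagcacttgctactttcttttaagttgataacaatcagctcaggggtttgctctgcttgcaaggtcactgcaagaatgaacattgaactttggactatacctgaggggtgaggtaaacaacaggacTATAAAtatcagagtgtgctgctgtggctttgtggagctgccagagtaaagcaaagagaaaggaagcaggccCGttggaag
ORM1: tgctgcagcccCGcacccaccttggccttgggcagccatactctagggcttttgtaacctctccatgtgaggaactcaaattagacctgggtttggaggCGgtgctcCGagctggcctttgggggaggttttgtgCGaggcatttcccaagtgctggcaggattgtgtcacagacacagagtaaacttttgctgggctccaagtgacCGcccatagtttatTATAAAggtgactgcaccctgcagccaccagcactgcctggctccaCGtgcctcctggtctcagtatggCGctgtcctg
KLKB1: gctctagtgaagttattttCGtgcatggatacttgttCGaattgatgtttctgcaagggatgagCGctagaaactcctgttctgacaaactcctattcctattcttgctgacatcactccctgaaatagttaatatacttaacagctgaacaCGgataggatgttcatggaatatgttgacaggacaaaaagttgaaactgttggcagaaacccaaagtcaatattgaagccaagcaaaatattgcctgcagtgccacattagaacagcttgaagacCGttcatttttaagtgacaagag
HERC6: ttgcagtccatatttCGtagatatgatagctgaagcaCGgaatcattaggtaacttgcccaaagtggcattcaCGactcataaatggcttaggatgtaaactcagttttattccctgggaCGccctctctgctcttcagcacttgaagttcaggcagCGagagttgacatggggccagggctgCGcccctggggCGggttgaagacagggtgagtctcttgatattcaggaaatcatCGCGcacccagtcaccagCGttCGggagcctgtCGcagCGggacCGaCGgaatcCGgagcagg
AOX1: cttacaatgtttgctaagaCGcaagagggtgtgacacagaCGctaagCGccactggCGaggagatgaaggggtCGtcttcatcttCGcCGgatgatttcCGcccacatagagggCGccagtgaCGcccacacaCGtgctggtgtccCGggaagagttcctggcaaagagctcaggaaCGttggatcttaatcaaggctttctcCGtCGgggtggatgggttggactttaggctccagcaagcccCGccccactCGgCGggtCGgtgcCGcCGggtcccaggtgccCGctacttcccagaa
TMEM238: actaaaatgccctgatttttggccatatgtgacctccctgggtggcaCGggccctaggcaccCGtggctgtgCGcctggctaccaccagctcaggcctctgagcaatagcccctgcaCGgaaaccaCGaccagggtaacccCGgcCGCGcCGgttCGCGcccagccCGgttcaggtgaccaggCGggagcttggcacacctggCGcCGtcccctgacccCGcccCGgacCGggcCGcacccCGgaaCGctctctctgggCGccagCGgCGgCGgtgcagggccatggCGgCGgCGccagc
The first 3 are poor in CpG, with observed over expected values of 0.08, 0.29 and 0.42, and the last 3 richer, with 0.75, 0.82 and 0.75. SELENOP and ORM1 carry TATAAA just before the start. Over both strands TATAAA was in 6 of the 64 windows (9.38%), against 8.07% of genes detected at LSB day 2 and 14% of all genes. The octamer ATTTGCAT, the core letters bound by POU factors, was in 2 of 64 (3.12%), against 1.71% and 2.19%. Both motif shares rest on very few genes.

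**Figure D1:**
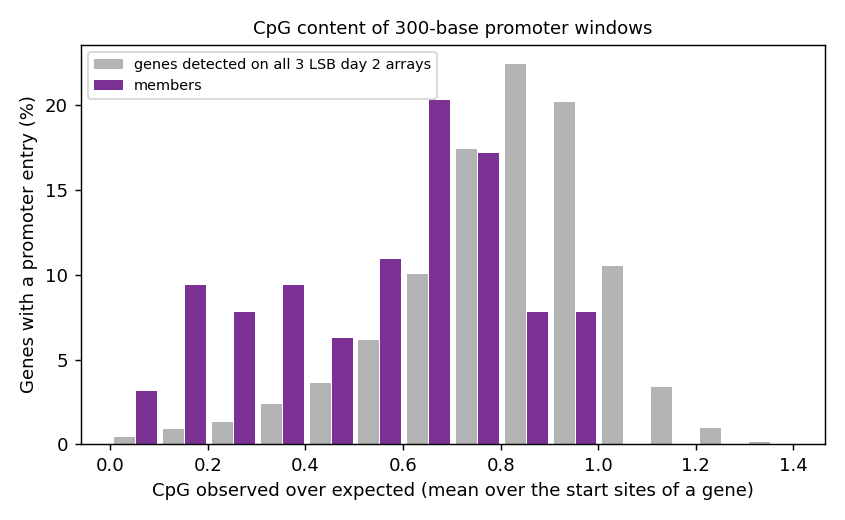
Share of genes (vertical axis, percent of genes with a promoter entry) by observed over expected CpG of the 300-base promoter window (horizontal axis), for the 64 members with an entry and the 6182 genes detected on all 3 LSB day 2 arrays. The members are spread lower, with 46.9% under 0.6 against 14.8%.

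In LSB detection of the genes ended in steps. On all 3 arrays, 54 of the 89 were detected at LSB day 3, 10 at day 5 and 1 at day 7. Of all 7380 genes detected at LSB day 2, 97.3% were detected on all 3 arrays at LSB day 3. The share was 94% at day 5 and 76.8% at day 7. Because the members had to be undetected at day 9, the gap shows when detection ended, not that it ended. The last LSB day with detection on all 3 arrays was day 2 for 35 genes, day 3 for 43, day 5 for 10 and day 7 for MT1M alone. The 10 that lasted to day 5 were AOX1, ART5, DAZL, DENND2C, LINC02387, ORM1, PLA2G7, TMEM238, VSIG10 and ZNF101. In bulk RNA, fewer cells with a transcript and less of it per cell cannot be told apart.

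In LSB3i, 24 of the 89 were detected on all 3 arrays at day 3, 6 at day 5 and 0 at day 7, against 93.3%, 93.1% and 93.3% of the genes detected at LSB day 2. The 6 at LSB3i day 5 were AOX1, ART5, CYB5RL, LINC02387, NMI and PLA2G7. These counts rest on which array is read. Arrays A, B and C detected 48, 40 and 37 of the genes at LSB3i day 3 and 54, 7 and 9 at day 5. At LSB3i day 5, 44 genes were detected on A and on neither B nor C, and 0 the other way round. Array A of LSB3i day 5 also detected more in general. It detected 98.1% of all genes detected at LSB day 2, against 94.4% on B and 94.4% on C, and 13620 probes, against 12097 and 12338. In LSB the same counts were 59, 59 and 61 at day 3 and 26, 28 and 11 at day 5.

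**Figure D2:**
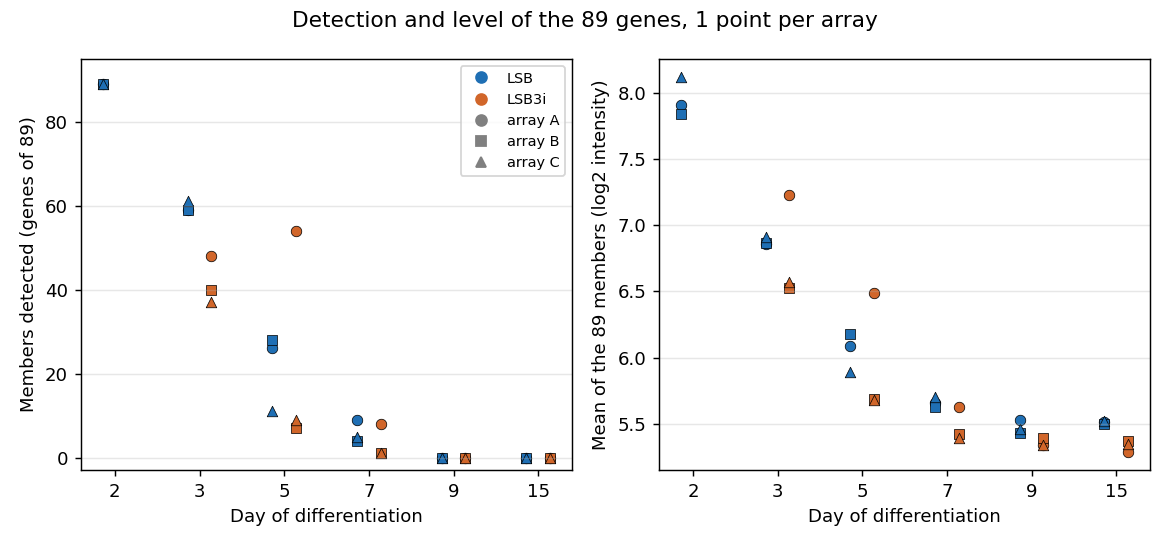
Number of the 89 genes detected (left) and their mean log2 intensity (right) on each array, by day, LSB in blue and LSB3i in orange, with circles, squares and triangles for arrays A, B and C. LSB arrays step down from 89 genes at day 2 to 59, 59 and 61 at day 3, and LSB3i array A of day 5, with 54 genes, stands above B and C.

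The mean level of the 89 genes was 7.91, 7.84 and 8.12 at LSB day 2, 6.86, 6.87 and 6.91 at day 3, 6.09, 6.18 and 5.89 at day 5 and 5.66, 5.63 and 5.70 at day 7. In LSB3i it was 7.23, 6.53 and 6.57 at day 3, 6.49, 5.69 and 5.68 at day 5 and 5.63, 5.42 and 5.39 at day 7. LSB days 3, 5 and 7 did not overlap each other, and in LSB3i arrays B and C of day 5 already lay at the LSB day 7 level. LSB3i array A exceeded the mean of B and C by a median of 0.58 over the genes at day 3 and 0.83 at day 5, against -0.06 and -0.01 over all genes tested. LSB3i day 5 array A differed from the mean of LSB3i day 3 arrays B and C by a median of -0.02. Pluripotency markers moved with it, as given above, and their part in these values was not tested.

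**Figure D3:**
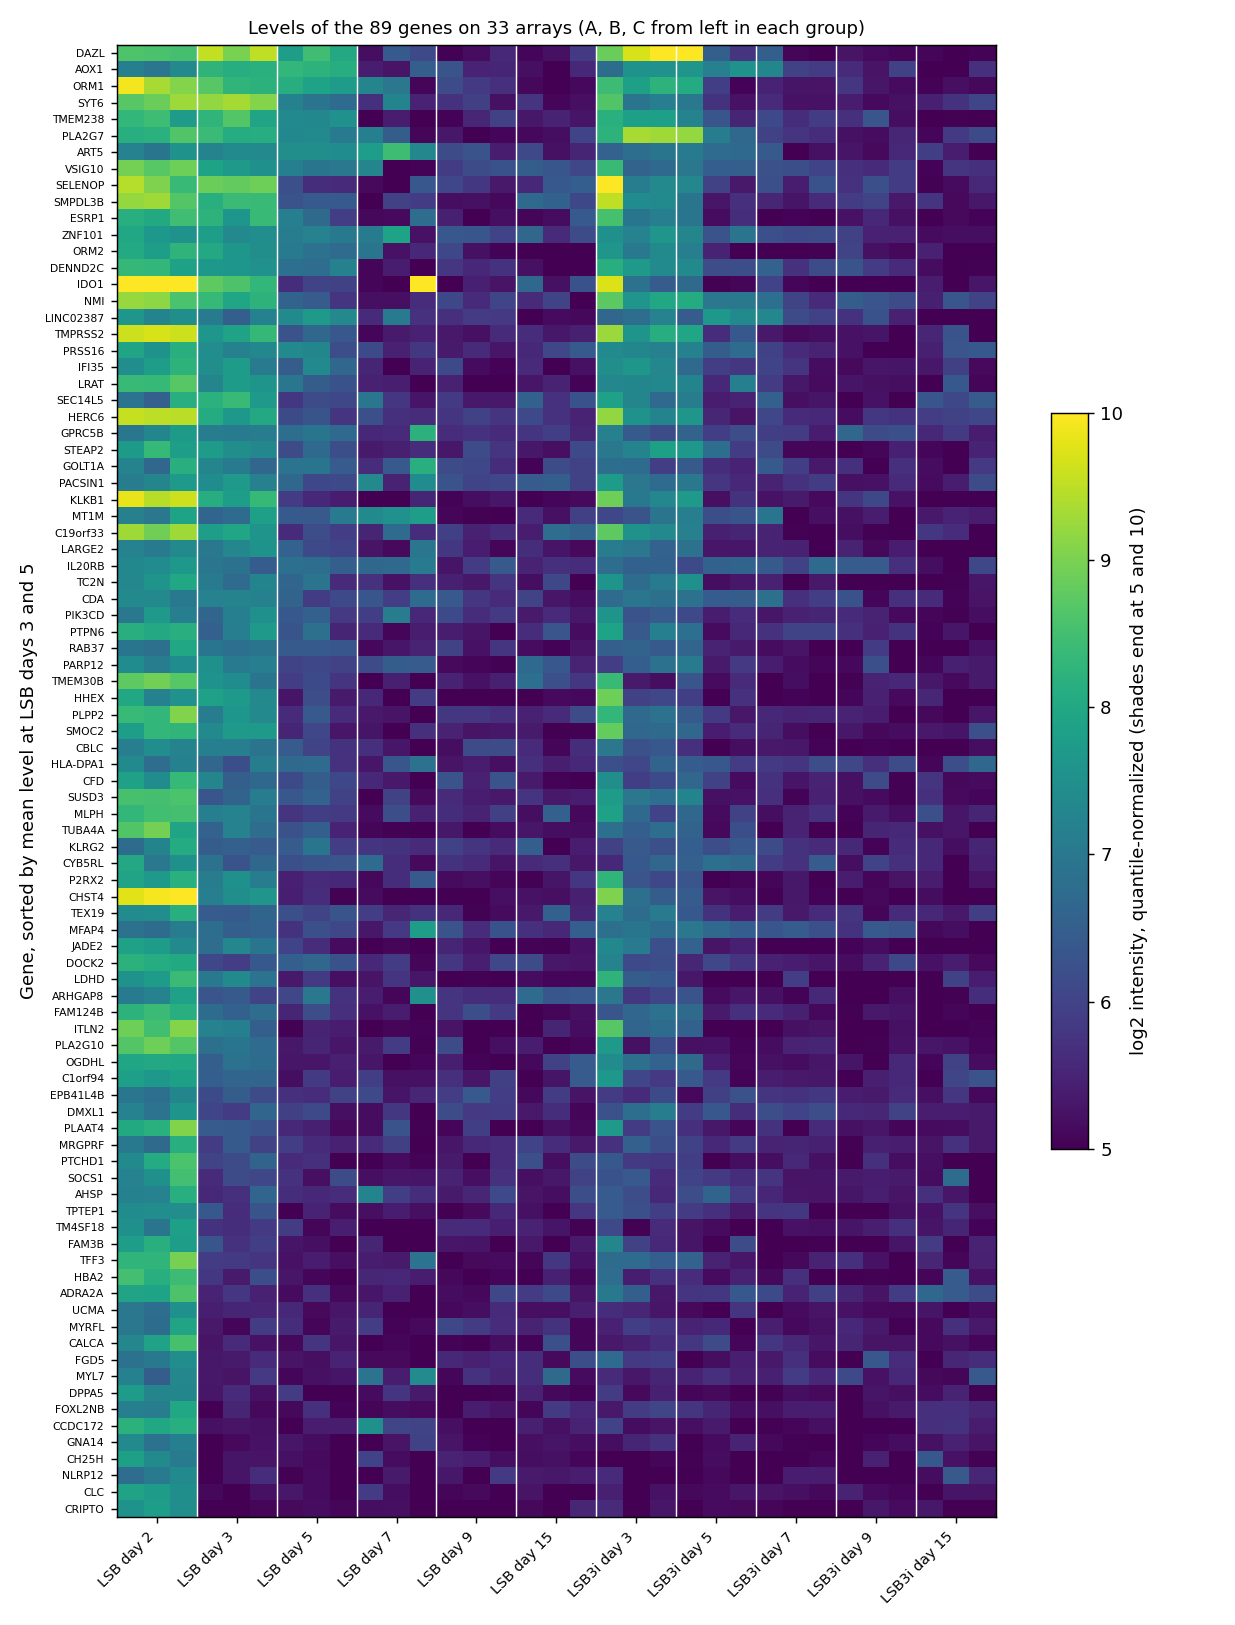
Log2 intensity of each of the 89 genes (rows, sorted by mean level at LSB days 3 and 5) on each of the 33 arrays (columns, A, B and C from the left in each group), with shades ending at 5 and 10. Genes at the bottom, such as CRIPTO and CLC, are dark from LSB day 3 on, and genes at the top, such as DAZL and AOX1, stay bright to LSB day 5.

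Detected on no array of days 3, 5 and 7 in either treatment were 17 genes: CALCA, CH25H, CLC, CRIPTO, DPPA5, FGD5, FOXL2NB, GNA14, HBA2, MRGPRF, MYL7, MYRFL, NLRP12, SOCS1, TM4SF18, TPTEP1 and UCMA. Only CALCA (mean 7.91) and HBA2 (8.36) of these lay above the members' median of 7.83 at LSB day 2. A dimmer gene loses detection after a smaller fall, so the last detection does not by itself order the genes by timing. Detected longest in LSB was MT1M, a metallothionein that binds zinc and copper. MT1M read 7.17, 6.98 and 7.90 at LSB day 2 and 7.40, 7.52 and 7.80 at LSB day 7. Treatment-specific detection, on all 3 arrays of 1 treatment and none of the other, was seen for CBLC and RAB37 at day 3, both in LSB. It was seen for CYB5RL at day 5, in LSB3i, and for none of the 89 at day 7. Means in LSB and LSB3i were 7.07 and 6.53 for CBLC, 6.90 and 6.51 for RAB37 and 6.28 and 6.70 for CYB5RL. These lie near the lowest detected levels, and none of the 3 genes passed the test of LSB3i against LSB at that day. The share of all genes with such a pattern was not counted.

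Pluripotency and germ cell genes were 4: CRIPTO, DPPA5, DAZL and TEX19. CRIPTO, the co-receptor for nodal also called TDGF1, read 7.57, 7.78 and 7.46 at LSB day 2 and 4.82, 4.98 and 5.07 at LSB day 3. DPPA5, an RNA-binding protein of pluripotent cells, read 7.75, 7.28 and 7.29 and then 5.30, 5.59 and 5.22. Neither was detected at LSB day 3, where POU5F1 still read 7.92, 8.0 and 7.94. DAZL, an RNA-binding protein needed by germ cells, was still detected there. It read 8.62, 8.56 and 8.52 at LSB day 2 and 9.55, 9.00 and 9.53 at LSB day 3. The LSB day 2 arrays chose the genes, so this step was not tested. In LSB3i it read 8.88, 9.70 and 10.36 at day 3 and 10.43, 6.51 and 5.76 at day 5, so array A of day 5 was as high as the highest array of day 3.

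Interferon and immune genes, a broad group assigned by hand, were 18: CFD, CLC, DOCK2, HERC6, HLA-DPA1, IDO1, IFI35, IL20RB, ITLN2, KLRG2, NLRP12, NMI, PARP12, PIK3CD, PLAAT4, PRSS16, PTPN6 and SOCS1. The share of such genes among all genes detected at LSB day 2 was not counted. At LSB day 3, 9 were detected on all 3 arrays, and at LSB day 5 none. HERC6, an interferon-induced member of the HERC ubiquitin ligase family, read 9.56, 9.51 and 9.49 at LSB day 2, 8.08, 7.66 and 8.02 at day 3 and 6.13, 6.29 and 5.75 at day 5. IDO1 read 8.76, 8.60 and 8.31 at LSB day 3 and 5.66, 6.02 and 5.98 at day 5. SOCS1, an inhibitor of cytokine signalling, read 7.22, 7.50 and 8.51 at LSB day 2 and 5.61, 6.14 and 6.06 at day 3. CLC, the galectin of eosinophils and basophils, read 7.88, 7.75 and 7.49 and then 5.10, 4.91 and 5.22. The 18 thus differed in when detection ended, SOCS1, CLC and NLRP12 being undetected at LSB day 3 and HERC6, IDO1 and NMI still detected. From LSB day 2 to day 3 the means went from 7.74 to 5.94 for SOCS1, 7.70 to 5.08 for CLC and 7.07 to 5.29 for NLRP12. For HERC6 they went from 9.52 to 7.92, for IDO1 from 10.62 to 8.56 and for NMI from 8.99 to 8.18. The day detection ended therefore does not rank the sizes of the falls.

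Epithelial genes were 11: ARHGAP8, C19orf33, CBLC, EPB41L4B, ESRP1, FAM3B, MLPH, STEAP2, TFF3, TMEM30B and TMPRSS2. At LSB day 3, 7 of them were detected on all 3 arrays and at LSB day 5 none. ESRP1, which directs epithelial splicing of many transcripts, read 8.14, 8.03 and 8.46 at LSB day 2, 8.24, 7.62 and 8.36 at day 3 and 7.16, 6.73 and 5.90 at day 5. TMPRSS2, a serine protease on the surface of epithelia, read 9.62, 9.70 and 9.61, then 7.62, 7.88 and 8.33, then 6.27, 6.69 and 6.36. Since the LSB day 2 arrays chose the genes, the step from LSB day 2 to day 3 is a description with no test.

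Lipid, redox and other enzymes were 15: AOX1, ART5, CDA, CH25H, CHST4, CYB5RL, LARGE2, LDHD, LRAT, MT1M, OGDHL, PLA2G10, PLA2G7, PLPP2 and SMPDL3B. At LSB day 3, 13 were detected on all 3 arrays. AOX1, aldehyde oxidase, read 7.16, 6.97 and 7.35 at LSB day 2, 8.26, 8.11 and 8.17 at day 3 and 8.31, 8.24 and 8.12 at day 5. In LSB it thus read higher on every array of days 3 and 5 than at day 2, a description with no test. At LSB3i day 3 its mean was 7.29 (SD 0.46), with detection on 2 of 3 arrays. CYB5RL, a cytochrome b5 reductase-like protein, read 8.01, 6.99 and 7.51 at LSB day 2 and 6.54, 6.83 and 6.73 at LSB3i day 5.

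Plasma, blood and matrix protein genes were 9: AHSP, HBA2, KLKB1, MFAP4, ORM1, ORM2, SELENOP, SMOC2 and UCMA. ORM1, an acute phase glycoprotein, read 9.92, 9.34 and 9.08 at LSB day 2 and 8.11, 7.91 and 7.77 at LSB day 5. ORM1 and ORM2 lie next to each other and are near-identical copies, as HBA2 and HBA1 are, so a probe may read either copy. HBA2, an alpha globin, read 8.50, 8.16 and 8.43 at LSB day 2 and 5.82, 5.36 and 6.21 at LSB day 3. SELENOP, the selenium carrier of plasma, read 9.44, 9.04 and 8.37 at LSB day 2 and 8.87, 8.79 and 8.89 at LSB day 3.

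The remaining 32 genes were 7 receptors, channels and hormones (ADRA2A, CALCA, GNA14, GPRC5B, MRGPRF, P2RX2 and PTCHD1), 11 genes of the cytoskeleton and vesicle traffic (DENND2C, DMXL1, FGD5, GOLT1A, MYL7, PACSIN1, RAB37, SEC14L5, SYT6, TC2N and TUBA4A), 4 of transcription and chromatin (HHEX, JADE2, MYRFL and ZNF101) and 10 little known or noncoding (C1orf94, CCDC172, FAM124B, FOXL2NB, LINC02387, SUSD3, TM4SF18, TMEM238, TPTEP1 and VSIG10). Of the receptors, channels and hormones, 2 of 7 were detected on all 3 LSB day 3 arrays. Of the cytoskeleton and vesicle genes it was 8 of 11. CALCA, the gene of calcitonin and of the sensory neuropeptide CGRP, read 7.31, 7.88 and 8.55 at LSB day 2 and 5.27, 5.62 and 5.24 at LSB day 3. HHEX, a homeobox factor of anterior endoderm, read 7.99, 7.20 and 7.53 at LSB day 2, 7.86, 7.68 and 7.36 at day 3 and 5.28, 6.18 and 5.36 at day 5. SYT6, a synaptotagmin of vesicle membranes, read 8.70, 8.87 and 9.27, then 9.18, 9.33 and 9.08, then 7.20, 6.93 and 6.74.

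**Figure D4:**
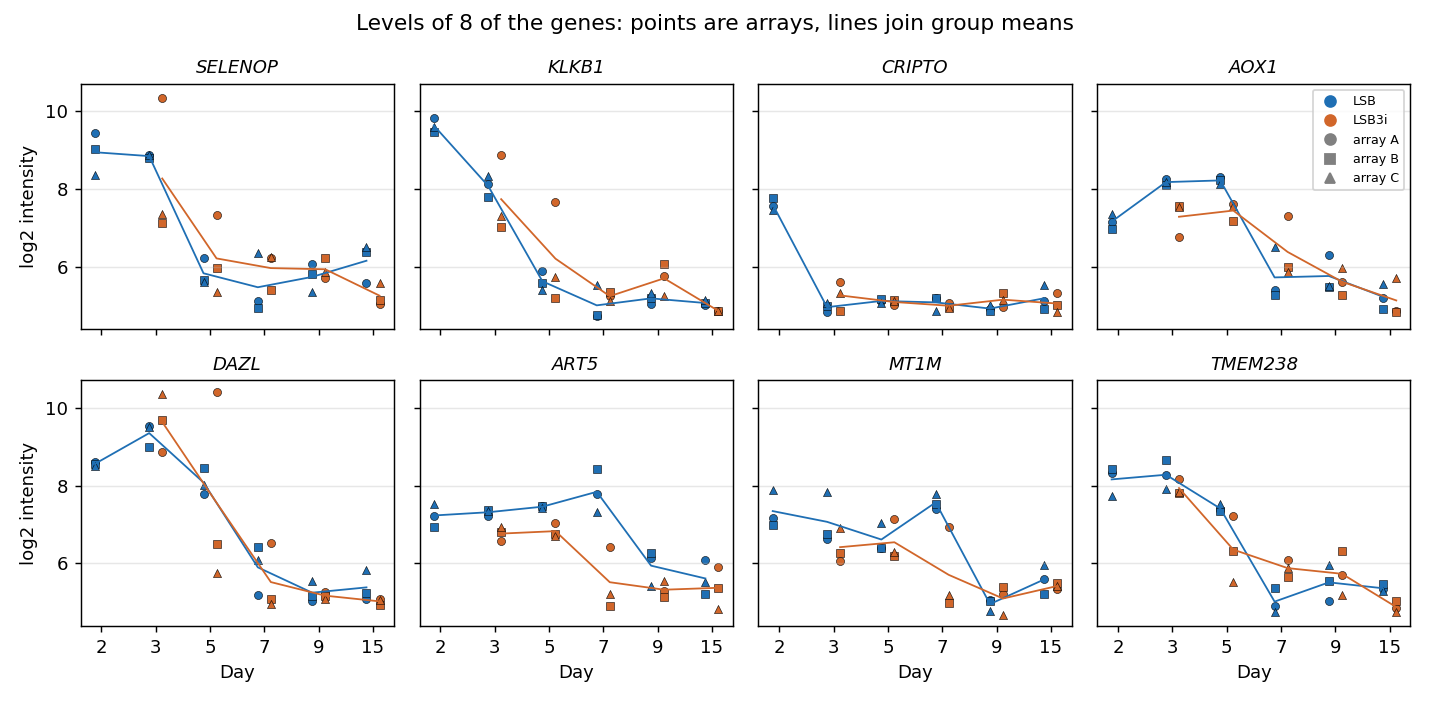
Log2 intensity by day of 8 of the genes, each point an array (blue LSB, orange LSB3i, circles, squares and triangles for A, B and C) and lines joining group means. CRIPTO is at background from LSB day 3, SELENOP and KLKB1 go between LSB days 3 and 5, and AOX1, DAZL, ART5 and MT1M last longer.

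Tests were run on days 3, 5 and 7, whose arrays did not choose the genes. The genes were still chosen as detected before these days and undetected after them, so a fall at some step was set by the choice. The steps between days therefore show when the genes fell, not that they fell. The other genes tested were not chosen to decline, so their shares are given for scale and are not a matched comparison. All 10038 genes with a detected probe entered a limma fit to those 18 arrays. A gene was counted as changed at a Benjamini-Hochberg adjusted p-value under 0.05 over all genes and a log2 change of at least 1. All 89 genes entered, through their LSB day 2 signal. Where a gene was detected on no array of the lower group, the fold is written as at least N, taken against the lowest detected level of those arrays.

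From LSB day 3 to day 5, 13 of the 89 genes fell and none rose, where 1.6% of all genes tested fell. The median change was -0.67 over the 89 and 0.02 over all genes. Given how the 89 were chosen, these gaps bear on the timing of the loss and are not independent evidence of a loss. SELENOP read 8.87, 8.79 and 8.89 at day 3 and 6.23, 5.66 and 5.60 at day 5, at least 4.71-fold lower (n = 3 against 3, limma adjusted p = 0.0221). KLKB1 read 8.12, 7.79 and 8.34 and then 5.89, 5.57 and 5.41, at least 2.76-fold lower (limma adjusted p = 0.0172). SYT6 changed by -2.24 ± 0.50 on the log2 scale (SE, limma adjusted p = 0.0217) and was still detected on 2 of 3 day 5 arrays. NMI, an interferon-inducible partner of STAT and MYC proteins, read 8.35, 7.95 and 8.23 and then 6.59, 6.44 and 5.75, with the lowest adjusted p-value among the 89 (-1.92 ± 0.37, limma adjusted p = 0.00951).

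The other 9 that fell between LSB days 3 and 5 belonged to several roles. SEC14L5, of the SEC14 family of lipid-binding proteins, was at least 2.78-fold lower, C19orf33 at least 2.23-fold, SMOC2, a secreted matrix protein, at least 1.97-fold and CHST4 at least 1.73-fold. PLPP2, a phospholipid phosphatase, was at least 1.68-fold lower, LDHD, mitochondrial D-lactate dehydrogenase, at least 1.41-fold, JADE2, a scaffold of histone acetyltransferase complexes, at least 1.32-fold and OGDHL, an oxoglutarate dehydrogenase-like enzyme, at least 1.07-fold. SMPDL3B, a sphingomyelinase-like protein of the plasma membrane, changed by -1.94 ± 0.49 and was detected on 1 day 5 array. Their limma adjusted p-values ran from 0.0246 to 0.0405. Of all 13, 5 were enzymes of the lipid, redox and other group, 3 plasma, blood and matrix proteins and 2 vesicle genes. Groups did not overlap, with day 5 lower, for 54 of the 89, where 22% of all genes did so. HERC6 (at least 2.47-fold lower, limma adjusted p = 0.0626), HHEX (at least 2.03-fold, 0.0586), IDO1 (at least 3.85-fold, 0.237) and TMPRSS2 (a change of -1.51 ± 0.47, 0.0845) did not pass. For IDO1 the SD was 0.23 and 0.20 at LSB days 3 and 5 but 3.33 at LSB day 7, whose spread also enters the shared error.

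How many passed depended on the arrays in the fit. Leaving out any single array of LSB day 3 or day 5 gave counts of 0 to 3, with 0 when LSB day 5 array C was left out. Without the LSB3i A arrays, whose spread enters the shared error, 26 fell, against 3% of all genes, and with only the 6 arrays of LSB days 3 and 5 in the fit 31 fell, against 3.58%.

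From LSB day 5 to day 7, 9 genes were lower and 2 higher, where 6.23% and 1.87% of all genes were, so the count of lower genes was close to the background. The LSB day 7 arrays had the widest spread in the fit (residual SD 0.801 over all genes), so p-values against them can be too small. With only these 2 groups in the fit 6 were lower and 0 higher, where 194 and 88 of all 10038 genes were. AOX1 read 8.31, 8.24 and 8.12 at day 5 and 5.39, 5.26 and 6.52 at day 7 (at least 1.89-fold lower, limma adjusted p = 7.3e-04). TMEM238, a small membrane protein of little known role, read 7.39, 7.34 and 7.52 and then 4.91, 5.38 and 4.76 (at least 1.08-fold lower, limma adjusted p = 4.3e-04). These bounds are set against the lowest detected levels of the LSB day 7 arrays, given above. LINC02387 was at least 1.12-fold lower (limma adjusted p = 0.0384).

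Of the other 6, DENND2C, an activator of Rab GTPases (limma adjusted p = 0.00175), IFI35, an interferon-induced protein (0.00495), LRAT, which makes retinyl esters (0.0229), PRSS16, a thymus serine protease (0.0145), and RAB37, a secretory Rab GTPase (0.00903), were detected at LSB day 5 on 1 to 3 arrays and on none at day 7, and gave no fold, since they were too dim at day 5 for a bound. IFI35 read 6.47, 7.39 and 6.66 at day 5 and 5.51, 4.81 and 5.50 at day 7. TUBA4A, an alpha tubulin, and MYL7, the atrial myosin light chain, which was among the 2 higher genes, passed (limma adjusted p = 0.0420 and 0.0163) without being detected on any array of either day. The other higher gene, CCDC172, a coiled-coil protein, read 4.83, 5.39 and 5.41 at day 5 and 7.51, 6.04 and 6.02 at day 7 and was detected on array A only. Groups did not overlap, with day 7 lower, for 28 of the 89, where 17.5% of all genes did so.

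From LSB3i day 3 to day 5 none of the 89 passed with all 18 arrays, where 0.00996% of all genes did, a single gene. At an unadjusted limma p-value under 0.05, 45 of the 89 were below the threshold, all lower at day 5, against 13.8% of all genes, and groups did not overlap for 20, against 9.13%. The median change was -0.71, against 0.03 over all genes, and the lowest adjusted p-value was 0.113. The residual SD of the 89 genes was 0.712 at LSB3i day 3 and 0.724 at day 5, against 0.274 and 0.324 at the same LSB days. Without the LSB3i A arrays 28 of the 89 fell, where 2.99% of all genes did, with 2 arrays left in each LSB3i group. Detection and bounds in that fit were taken over arrays B and C alone, and 5 of the 28 were detected on neither array of either day. DAZL went from 9.70 and 10.36 to 6.51 and 5.76, at least 10-fold lower (limma adjusted p = 1.4e-04). ORM1 went from 7.84 and 8.23 to 5.92 and 5.05, at least 2.51-fold lower (0.0163). PLA2G7, the lipoprotein-associated phospholipase, was still detected at day 5 and went from 9.34 and 9.29 to 7.11 and 6.68 (-2.42 ± 0.47, 0.00886). Among the others were TMPRSS2 (at least 2.22-fold lower), TMEM238 (at least 2.18-fold), C19orf33 (at least 1.67-fold), HERC6 (at least 1.63-fold) and ORM2 (at least 1.4-fold). In the same fit 16 of the 89 fell in both treatments from day 3 to day 5, where 1.28% of all genes did.

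**Figure D5:**
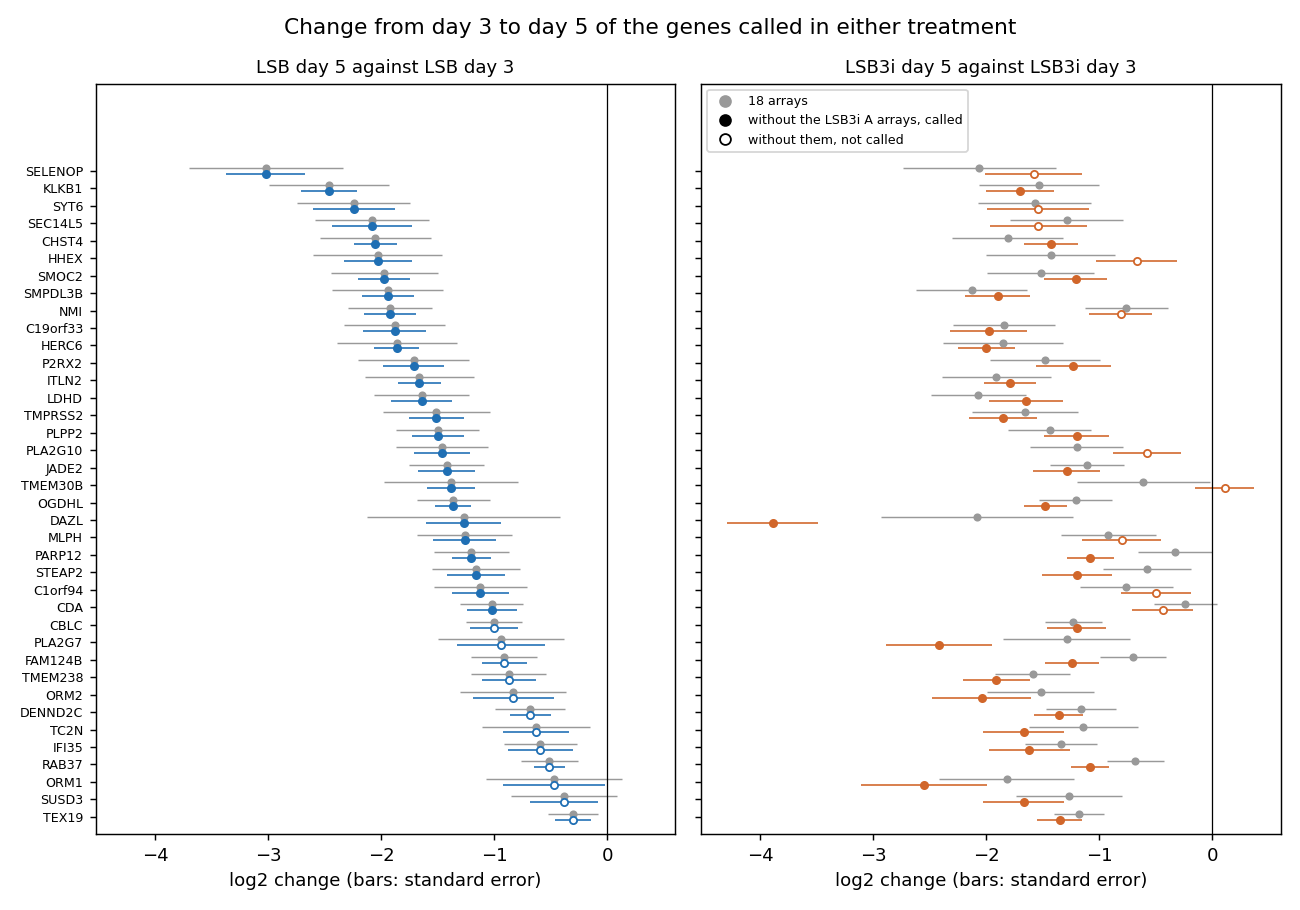
Log2 change from day 3 to day 5 with its standard error in LSB (left) and LSB3i (right) for each member that changed in either treatment in the fit without the LSB3i A arrays. Grey points are the fit to 18 arrays and coloured points the fit without the LSB3i A arrays, filled where the gene changed. Undetected groups enter at their measured levels, so the plotted sizes are fitted values and not bounds, and SELENOP is lowest in LSB at -3.02 and DAZL in LSB3i at -3.89.

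From LSB3i day 5 to day 7 none of the 89 passed, and 0% of all genes did. At an unadjusted limma p-value under 0.05 there were 15 of the 89, all lower, against 15% of all genes, and groups did not overlap for 16, against 8.72%. Without the LSB3i A arrays 5 fell, where 1.77% of all genes did: ART5, an ADP-ribosyltransferase family member (at least 1.22-fold lower, limma adjusted p = 0.00305), LINC02387 (at least 2.12-fold, 0.0498), AOX1 (at least 1.90-fold, 0.0183), NMI (at least 1.47-fold, 0.0252) and STEAP2, a metalloreductase (0.0270), which was too dim at day 5 for a bound. AOX1 and LINC02387 also fell in LSB from day 5 to day 7 in that fit.

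LSB3i was set against LSB at the same day to ask what the added inhibitors changed. At day 3 none of the 89 differed, where 0.159% of all genes did, and 8 were below an unadjusted limma p-value of 0.05, against 5% of all genes. At day 5 none differed, where 2.61% of all genes did, and 8 were below 0.05 unadjusted, against 17.6%. The median difference was -0.09 at day 3 and -0.06 at day 5, with a lowest adjusted p-value of 0.513 and 0.0851. A p-value that misses the threshold does not show that the treatments gave equal levels. Without the LSB3i A arrays 3 genes were lower in LSB3i at day 3, where 0.917% of all genes were, and 5 at day 5, where 3.15% were. At day 3 TMEM30B, a subunit of phospholipid flippases, read 7.56, 7.44 and 6.93 in LSB and 5.36 and 5.18 on LSB3i arrays B and C, but 8.37 on array A (at least 1.51-fold lower without A, limma adjusted p = 4.9e-04). SYT6 (-2.16 ± 0.41, 0.0163) and HHEX (at least 1.88-fold lower, 0.0284) were the others. At day 5 the 5 were DAZL (at least 2.60-fold lower, 0.00614), ORM1 (at least 2.34-fold, 0.0104), TMEM238 (at least 1.64-fold, 0.00478), SYT6 (at least 1.19-fold, 0.0497) and ORM2 (at least 1.13-fold, 0.0201).

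At day 7, 4 of the 89 were lower in LSB3i and 1 higher, where 6.2% and 11.2% of all genes were. The wide spread of the LSB day 7 arrays can make these p-values too small as well. With only these 2 groups in the fit 2 were lower and 0 higher, where 316 and 408 of all 10038 genes were. ART5 read 7.78, 8.44 and 7.32 in LSB and 6.42, 4.91 and 5.22 in LSB3i (at least 2.60-fold lower, limma adjusted p = 1.1e-04). MT1M read 7.40, 7.52 and 7.80 in LSB and 6.95, 4.97 and 5.20 in LSB3i, where array A detected it (-1.87 ± 0.46, 0.00628). CCDC172 was at least 1.04-fold lower (0.00446), a value that rests on LSB array A. PARP12, an interferon-stimulated ADP-ribosyltransferase, passed (0.0162) while undetected in both groups. DENND2C, the higher gene (0.0171), read 5.06, 5.38 and 4.90 in LSB, detected on none, and 6.58, 5.72 and 6.17 in LSB3i, detected on 1, and was too dim for a bound. With the LSB3i A arrays left out, 4 were lower and 0 higher, where 7.46% of all genes were lower. In that fit ART5 was at least 2.64-fold lower (7.8e-06), MT1M at least 2.20-fold (1.9e-04) and CCDC172 at least 1.06-fold (0.0136), PARP12 passed undetected (4.9e-04), and the log2 change of DENND2C, 0.83, was under the limit of 1.

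The change from day 5 to day 7 was also compared between treatments. TMEM238 was the single member past both thresholds (1.93 ± 0.46, limma adjusted p = 0.0388), where 2.99% of all genes were. In LSB3i it read 7.23, 6.33 and 5.51 at day 5 and 6.10, 5.65 and 5.89 at day 7. It was undetected on all 6 day 7 arrays and on 2 of 3 LSB3i day 5 arrays, so the contrast rests on levels below detection and does not show that the change differed between treatments.

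Lists of other genes of the same or related processes were read beside these genes. Of 34 other genes of the pluripotency network tested, POU5F1 alone fell from LSB day 3 to day 5, from 7.92, 8.0 and 7.94 to 5.67, 5.32 and 6.22 (at least 2.52-fold lower, limma adjusted p = 0.0340), and the median of the 34 was -0.45 against 0.02 over all genes. From LSB day 5 to day 7, DNMT3B, a de novo DNA methyltransferase (-1.96 ± 0.33), ZFP42 (-1.92 ± 0.29) and MYCN (-1.40 ± 0.20) fell and ETV5 rose (1.53 ± 0.40), with limma adjusted p-values from 7.0e-04 to 0.0176. SOX2, used by neural progenitors too, read 12.82, 12.85 and 12.84 at LSB day 2 and 14.17, 13.91 and 14.20 at LSB day 7. NANOG was already at 5.88, 5.94 and 5.88 at LSB day 3, from 9.52, 9.46 and 9.68 at day 2, a timing shared with CRIPTO and DPPA5.

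Of 34 other genes of epithelial adhesion tested, none fell from LSB day 3 to day 5 (median -0.33), and CLDN6, a tight junction claudin (at least 1.91-fold lower), and RAB25 (-1.37 ± 0.36) fell from LSB day 5 to day 7. In LSB3i against LSB, DSP, desmoplakin, was lower at day 5 (-2.45 ± 0.39) with RAB25 (-1.49 ± 0.36), and 9 were lower at day 7, among them EPCAM (-1.76 ± 0.52). With the LSB3i A arrays left out these were at least 4.93-fold lower for DSP, undetected on B and C, -1.88 ± 0.28 for RAB25 and -2.09 ± 0.17 for EPCAM. Of 22 immune, cytokine and complement genes, none of which is a member, 4 fell from LSB day 3 to day 5: CD9 (-2.36 ± 0.55), CCL26 (at least 1.59-fold lower), IL17RD (-1.21 ± 0.23) and CD24 (-1.20 ± 0.19). With no member in it, this list does not show whether the interferon and immune members fell with a pathway. Of 10 other germ cell genes tested, TFAP2C fell from LSB day 3 to day 5 (-1.83 ± 0.34). Each named change had a limma adjusted p-value under 0.05.

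The limits of the choice can be read from the genes next to them. KLRG2, MYL7 and NLRP12 were kept with a highest LSB day 2 detection p-value of 0.00922, and C4orf36, CCL26 and EDARADD were left out at 0.01186. AOX1, ARHGAP8 and ART5 were kept with a lowest detection p-value of 0.01054 on the 12 late arrays, and PYCARD (0.00922), C1S and CCNA1 (both 0.00791) were left out for 1 late array each. Only 20 of the 89 stayed at 0.05 or above on every late array, among them CHST4, CLC, CRIPTO, DPPA5, HHEX, MT1M, SMOC2 and TFF3.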

How the data were processed

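RNA of H9 cells was read on 33 Illumina bead arrays, 3 in each of 11 groups. The deposited table holds, per the file headers, an average intensity and a detection p-value for each of 48803 probes, made with GenomeStudio per the submitters' processing notes (version not given in the sources used here). A second table holds the authors' processed intensity values. Its probe IDs did not match the values of the first, and 4.91% of the probes matched by ranks had the same ID, so it served only as an alternative. Probe names came from the platform annotation: 28098 probes have 1 symbol, 13 several and 20692 none.

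Intensities were background-corrected by normexp with the detection p-values (offset 16), put on the log2 scale and quantile-normalized with limma 3.58.1 (R 4.3.3). Probes detected on all 3 arrays of at least 1 group were kept (12708), and each gene took its brightest kept probe (10038 genes). The 18 arrays of days 3, 5 and 7 were fitted with 6 group means (12 residual degrees of freedom, median standard error of a difference 0.258), and the fit was tested on simulated data. The groups share 1 error per gene although their spread was unequal. Over all genes the residual SD was 0.801 at LSB day 7 and 0.208 to 0.374 in the other fitted groups. Comparisons with LSB day 7 can therefore have p-values that are too small. With only the 2 groups compared, 282 genes and not 813 changed from LSB day 5 to day 7. For LSB3i against LSB at day 7 it was 724 and not 1749. Arrays carry no read depth, so their number limits the precision.

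The members and the gene lists were chosen with earlier results of these data known. Roles were assigned from general knowledge. Values are given for members by a rule: the 12 brightest at LSB day 2, up to 6 changed at each end of a comparison, those in a gene list, those at the limits of the choice, and those with the earliest, latest or treatment-specific detection. TMEM30B, PLA2G7, ORM2 and STEAP2 were named for their calls without the LSB3i A arrays, after their values were seen. Same-lettered arrays deviated together in 1 of 15 group pairs, LSB3i days 5 and 7, so the letters were not used as a block. The block tried as an alternative gives each letter a single shift across both treatments. It therefore could not fit a shift of the LSB3i A arrays alone. Alternatives were other scaling, background, filters, probe choice, arrays in the fit, weights, the block, the processed table and each array left out.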

Additional observations from a re-analysis of the deposited data

Results flagged for a closer look

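TMEM238 was singled out because a contrast of its day 5 to day 7 changes passed the test: LSB3i minus LSB was 1.93 ± 0.46 on the log2 scale (limma adjusted p = 0.0388, a contrast added after the data were seen). LSB arrays went from 7.39, 7.34 and 7.52 to 4.91, 5.38 and 4.76, lower on all 3, and LSB3i arrays from 7.23, 6.33 and 5.51 to 6.10, 5.65 and 5.89, with overlap. TMEM238 was detected on 1 LSB3i day 5 array and on none at day 7 in either treatment, so the size rests on levels below detection and does not show that the change differed between treatments. Without the LSB3i A arrays the contrast was 2.26 (limma adjusted p = 0.0043).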

How the results depend on the processing

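Of the calls named in the report, those of ART5 in LSB3i against LSB at day 7 and of AOX1 and TMEM238 from LSB day 5 to day 7 held in all 17 alternatives, and no call reversed. Of the 13 calls from LSB day 3 to day 5, that of NMI held in 15 and the others in 8 to 11. The other calls held in 6 (LINC02387 and TUBA4A) to 16 (DENND2C) from LSB day 5 to day 7, and in 10 to 14 in LSB3i against LSB at day 7. The number of members was 31 at a detection p-value of 0.05, 20 with 0.01 early and at least 0.05 late, 161 with only day 9 and 170 with only day 15 as the late days, and 89 to 139 leaving out 1 array. From LSB day 3 to day 5, where 13 members changed, the count was 20 with median scaling, 6 with offset 50, 21 with all 11 groups, 31 with 2 groups, 30 with array weights, 4 in the processed table, 26 without the LSB3i A arrays and 0 to 3 leaving out 1 array. From LSB day 5 to day 7, where 11 changed, it was 28, 4, 15, 6, 6, 2 and 14 in the same order and 5 to 12 leaving out 1 array. For LSB3i against LSB it was 7 with weights and 3 without the A arrays at day 3 (0 to 2 leaving out 1 array), 1 with median scaling, 7 with weights and 5 without the A arrays at day 5 (0 to 4), and at day 7, where 5 changed, 3 with median scaling, 2 with offset 50, 2 with 2 groups and 1 in the processed table (4 to 9, with 9 without LSB day 7 array B or C). In LSB3i from day 3 to day 5 it was 19 with 11 groups, 35 with weights, 28 without the A arrays and 0 to 34 leaving out 1 array, with 34 without day 5 array A. From day 5 to day 7 it was 2, 11, 5 and 0 to 7, with 7 without day 7 array A. The cause of these differences was not tested. With the replicate block the counts were 15 and 10 for the LSB steps, 5 for LSB3i against LSB at day 7 and 0 for the others, so the block moved no count by over 1.5 times. With median scaling the median of all genes was 1.39 in LSB3i against LSB at day 7, against 0.09 with quantile scaling (7082 higher and 85 lower, against 1127 and 622), -1.21 from LSB day 5 to day 7, against -0.06 (8 and 6530, against 188 and 625, with the members' median at -0.53) and 0.21 from LSB3i day 5 to day 7, against 0.01. The TMEM238 contrast was 0.94 in the processed table, under the limit of 1. Counts over all genes for LSB day 5 against day 3 ran from 105 to 604, against 281. Signals near background limit what can be seen of most members, above all on the dim LSB day 7 arrays.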

Other observations

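IDO1 read 5.08, 4.73 and 10.67 on LSB day 7 arrays A, B and C, so array C, the dimmest of all 33, held a signal near that of LSB day 2 from 1 probe, with deposited intensities of 178.5, 117.9 and 619.0. On that array 10 of the 89 genes (11.24%) exceeded both A and B by more than 1 on the log2 scale, against 5.29% of all genes tested. The cause was not tested. NANOG, off with CRIPTO and DPPA5 at LSB day 3, read 7.70, 7.77 and 7.66 at LSB day 15, while CRIPTO read 5.11, 4.91 and 5.54 there. POU5F1 read 6.47, 7.87 and 6.33 at LSB day 15. These genes were picked after their values were seen.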
